A study of Mus musculus with 12 samples.

Results

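The EYA-SIX genes described here are 7 developmental regulators of the mouse, Eya1, Eya2, Eya3, Eya4, Six2, Six4 and Six5. They were taken by name from the 23420 genes of the count table, together with every BMAL1 region within 50 kb of their starts, which gave 4 of 4740 regions. The list of genes was selected on knowledge of their mRNA values in these libraries, so their mRNA levels and changes are given as a description, with no test. The signal of the regions after treatment was not used in the choice and was tested. The authors had called the regions on control cells, whose BMAL1 signal is also the reference in the test between treatments. Calling on high control signal favours a lower signal after treatment, so adjusted p-values of a fall may be too small.

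The cells were embryonic fibroblasts of 129/sv mice. In all groups they were per1 -/-, per2 -/-, nr1d1 -/- and nr1d2 -/-, so they lacked 2 clock repressor genes of the Period family and both Rev-erb genes, and in all groups they carried the transgene PER2-ER, a fusion of the repressor PER2 with what ER usually stands for, the ligand-binding part of the estrogen receptor. The treated groups received 1 µM 4-hydroxytamoxifen (4-OHT), a ligand of that receptor, for 4 h, and the control groups received its solvent, 0.1% EtOH, for as long. Messenger RNA, chromatin precipitated with an antibody to BMAL1, and input chromatin were each sequenced in 2 libraries per treatment, 12 in all, to compare BMAL1 binding and transcripts with and without induced PER2. Not stated in the sources used here is the promoter of the transgene, and no cells without the transgene were analysed, so an effect of 4-OHT itself cannot be told apart from that of the fusion protein.

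EYA proteins are transcriptional co-activators that also carry a protein phosphatase domain. They do not bind DNA on their own but are brought to it by homeodomain transcription factors of the sine oculis family, to which Six2, Six4 and Six5 belong, and the pair works downstream of PAX factors and together with DACH factors in the development of the eye, ear, kidney, muscle and craniofacial skeleton. BMAL1, with its partner CLOCK, activates clock-controlled genes through E-box elements, with the sequence CACGTG as the canonical form, and PER2 is a repressor of that pair.

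Counted mRNA reads per library were 69292382 and 89695667 with 4-OHT and 71633387 and 60267540 with EtOH. ChIP libraries held 13740997 and 20712373 reads with 4-OHT and 13502201 and 17635022 with EtOH. Inputs held 12481308 and 33454366 reads with 4-OHT and 13736646 and 28264889 with EtOH. All 7 genes passed the filter on low counts, as did 13216 genes in all. The genes given as knocked out still had reads, in counts per 1000000 counted reads (CPM). Per1 had 38.1 and 45.4 CPM with 4-OHT and 42.2 and 36.7 CPM with EtOH, Per2 552.3 and 608.9 CPM with 4-OHT and 566.7 and 550.4 CPM with EtOH, and Nr1d1 16.4 and 17.5 CPM with 4-OHT and 49.2 and 56.0 CPM with EtOH. Counts per gene do not show whether reads fell in a deleted part or, for Per2, in the transgene, so they do not check the knockouts. Of 12 fibroblast markers, Thy1 and Lum had no read in any mRNA library and Dcn averaged 0.157 ± 0.0595 CPM with 4-OHT and 0.136 ± 0.0265 CPM with EtOH (SD, n = 2 each). Of the 12, 10 passed the filter, 3 had an unadjusted p below 0.05 and 0 were called by edgeR or DESeq2. The other fibroblast markers were expressed, among them the collagen gene Col1a1 at 6419 ± 579.8 CPM with 4-OHT and 6132 ± 758.2 CPM with EtOH and the matrix gene Fn1 at 9640 ± 490.6 CPM with 4-OHT and 10065 ± 62.4 CPM with EtOH.

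The regions stood at 3 of the 7 genes, and the stretches shown here are the parts of 2 of them that lie in 1 RefSeq promoter window each (assembly GRCm38.p6, the build of the files under its other name, mm10). Each is on the minus strand, 5′ to 3′. They are shown because they are the sequence under BMAL1 signal next to a start of Eya4 and of Six4. The capitals mark CACGTT, which differs from the canonical E-box in its last base. That motif was searched for after the sequences had been seen.
Eya4, chr10:23350104-23350193: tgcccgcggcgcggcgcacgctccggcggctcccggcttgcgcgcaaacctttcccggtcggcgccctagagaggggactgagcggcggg
Six4, chr12:73113376-73113555: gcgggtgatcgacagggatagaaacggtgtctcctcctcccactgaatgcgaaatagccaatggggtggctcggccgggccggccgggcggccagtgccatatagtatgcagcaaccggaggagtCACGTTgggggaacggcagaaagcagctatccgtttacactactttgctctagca

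The stretch at Eya4 covers 90 of the 117 bp of its region and holds neither CACGTG nor CACGTT on either strand. The stretch at Six4 covers 180 of the 284 bp of its region, the rest of which lies in the window of a second RefSeq start and is not printed. Its CACGTT begins at position 126 of the stretch, and its last base is a RefSeq start, at position 73113425 of chromosome 12. RefSeq promoter windows, each 250 bases before to 50 after a start, were given for 5 of the 7 genes (Eya3, Eya4, Six2, Six4 and Six5) in 7 windows. CACGTG was in 0 of these 7 windows, and CACGTT on either strand was in 2, both of them Six4 windows that share the same match. Over all 32851 windows of the same length, 7.15% held CACGTG and 4.68% held CACGTT on either strand. A match describes the letters of a window and is not a measured binding site.

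Eya4 was the most abundant of the 7 transcripts in these fibroblasts and Six2 the least. Between genes, levels were compared as reads per kb of annotated exon and per 1000000 counted reads (RPKM). Eya4, whose human gene is known for inherited deafness, had 58.7 ± 3.21 RPKM with 4-OHT and 61.1 ± 4.01 RPKM with EtOH (SD, n = 2 each, as for all means that follow). This level lay above that of 90.5% of tested genes with EtOH. Eya3, which in mammals is also known as a photoperiod-responsive gene of the pituitary, came next at 16.9 ± 0.203 RPKM with 4-OHT and 18.1 ± 0.813 RPKM with EtOH. Eya1, needed for ear and kidney development, followed at 11.5 ± 0.414 RPKM with 4-OHT and 12.6 ± 0.826 RPKM with EtOH. The transcription factor genes Six5 and Six4 stood close together. Six5 had 7.13 ± 0.528 RPKM with 4-OHT and 6.47 ± 0.041 RPKM with EtOH. Six4 had 6.68 ± 0.335 RPKM with 4-OHT and 6.45 ± 0.149 RPKM with EtOH. These 2 were the only neighbours in the order whose values over the 4 libraries overlapped. Eya2 had 0.346 ± 0.0251 RPKM with 4-OHT and 0.779 ± 0.0644 RPKM with EtOH, and Six2, which keeps nephron progenitors from differentiating in the mouse kidney, had 0.102 ± 0.019 RPKM with 4-OHT and 0.121 ± 0.0866 RPKM with EtOH. With EtOH, 15.2% of tested genes had a lower RPKM than Eya2 and 4.50% a lower RPKM than Six2.

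**Figure D1:**
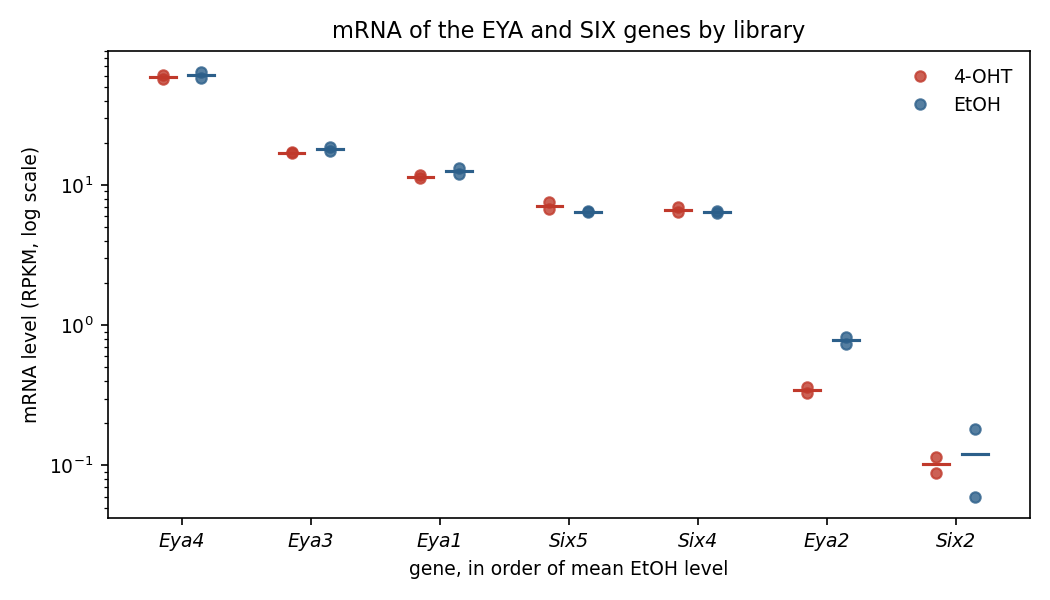
mRNA level of the 7 genes in RPKM on a log axis, 1 point per library and a bar at the mean of the 2 libraries, with 4-OHT left of EtOH for each gene. Eya4 stands highest, at 58.7 RPKM with 4-OHT and 61.1 RPKM with EtOH, and only Eya2 shows a gap between treatments that is wide on this scale.

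The 4 EYA genes summed to 87.5 ± 3.45 RPKM with 4-OHT and 92.5 ± 5.71 RPKM with EtOH. Eya4 made up 67.1% of this sum with 4-OHT and 66.0% with EtOH, Eya3 19.4% with 4-OHT and 19.5% with EtOH, and Eya1 13.1% with 4-OHT and 13.6% with EtOH. Eya2 gave 0.396% of the sum with 4-OHT and 0.842% with EtOH. The 3 homeobox genes summed to 13.9 ± 0.212 RPKM with 4-OHT and 13.04 ± 0.277 RPKM with EtOH, of which Six5 made up 51.2% with 4-OHT and 49.6% with EtOH and Six4 48.0% with 4-OHT and 49.5% with EtOH.

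Of the EYA co-activator genes, Eya2 showed the largest log2 change between treatments. Eya2 had 70 and 82 reads with 4-OHT, against 144 and 136 reads with EtOH. These correspond to 1.00 and 0.906 CPM with 4-OHT, against 2.02 and 2.27 CPM with EtOH. Both 4-OHT libraries lay below both EtOH libraries, and the fitted log2 change was -1.17 (SE 0.18), and the mean CPM with 4-OHT was 0.445 times that with EtOH. By the threshold used for all genes (edgeR, adjusted p below 0.05) 1 of the 7 members, Eya2, counts as lower and 0 as higher, where 1.63% of tested genes were called lower and 0.802% higher. Since the choice of the members used these values, nothing is read from that count. Its log2 change lay between -1.26 and -1.09 when each library was left out. In bulk RNA, fewer cells that express a gene and less RNA per cell cannot be told apart.

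The other EYA genes differed little between treatments. Eya1 had 51.1 and 48.5 CPM with 4-OHT, against 52.1 and 57.2 CPM with EtOH, with a log2 change of -0.13 (SE 0.07). Eya3 had 87.3 and 88.8 CPM with 4-OHT, against 90.9 and 96.8 CPM with EtOH, with a log2 change of -0.09 (SE 0.07). In both genes the groups did not overlap, with 4-OHT lower, which with Eya2 makes 3 of the 7 members and held for 18.3% of all tested genes. Counted in either direction, the groups did not overlap in 4 of the 7 members and in 36.9% of tested genes. Eya4, the predominant EYA transcript, had 250.1 and 231.5 CPM with 4-OHT, against 238.6 and 261.9 CPM with EtOH, with a log2 change of -0.06 (SE 0.07). Its groups overlapped.

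The 3 homeobox transcription factor genes had log2 changes between -0.17 and 0.14. Six5, which lies beside Dmpk, a gene affected in human myotonic dystrophy, had 19.3 and 21.4 CPM with 4-OHT, against 18.4 and 18.5 CPM with EtOH, with a log2 change of 0.14 (SE 0.08). It was the 1 member with both 4-OHT libraries above both EtOH libraries, which held for 18.7% of tested genes. Six4, a factor of muscle development, had 38.5 and 35.9 CPM with 4-OHT, against 35.4 and 36.5 CPM with EtOH, with a log2 change of 0.05 (SE 0.08) and overlapping groups. Six2 rested on 13 and 22 reads with 4-OHT, against 9 and 23 reads with EtOH, with a log2 change of -0.17 (SE 0.44). Its groups overlapped, and its change took either sign when 1 library was left out, between -0.81 and 0.78, so no direction can be given at this depth. The median log2 change was -0.09 over the 7 members and 0.00 over all tested genes.

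**Figure D2:**
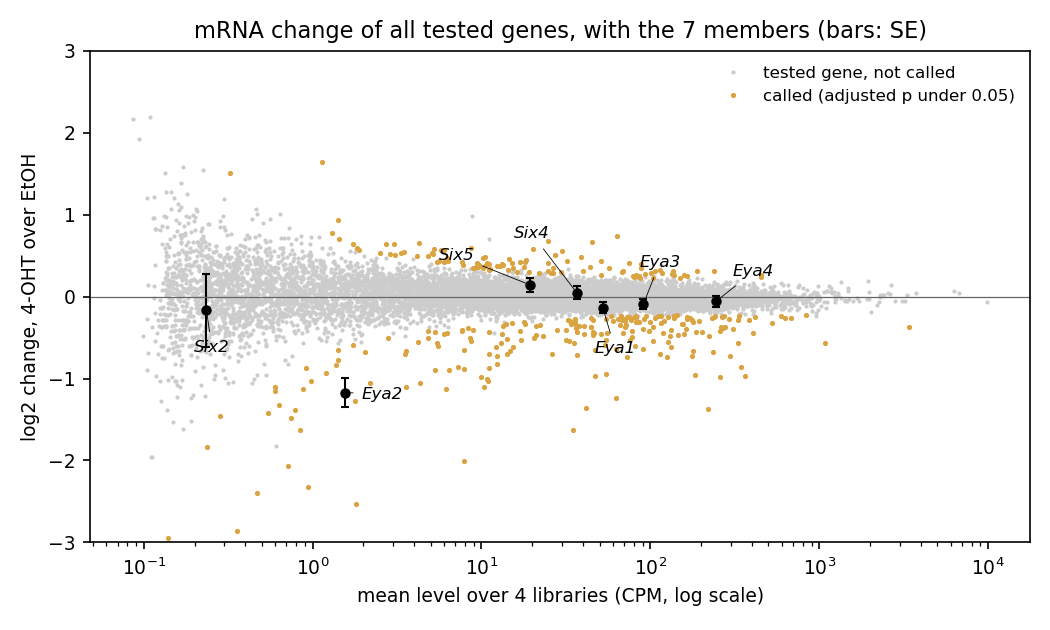
Log2 change in mRNA (4-OHT over EtOH) against mean level in CPM on a log axis for the 13216 tested genes, with genes called at an adjusted p below 0.05 in ochre and the 7 EYA-SIX genes in black with their SE. Eya2 lies at -1.17, apart from the other members, which lie between -0.17 and 0.14.

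The 5 genes whose pattern over the 4 mRNA libraries was closest to that of Eya2 were Amigo2, Nr1d2, Zcchc5, Tspan8 and Krtap1-5. Genes chosen by likeness to Eya2 are lower with 4-OHT through that choice. Their log2 changes are therefore a description, and no shared regulation is read from them. The measure was the Euclidean distance of log2 CPM after subtraction of each gene's mean, which was 0.0588 for Amigo2, a gene for a cell adhesion protein, 0.0918 for Nr1d2, 0.101 for Zcchc5, 0.137 for Tspan8 and 0.150 for Krtap1-5. Nr1d2, for the clock repressor REV-ERB beta, is among the genes knocked out in all groups, and its remaining transcript had 39.4 and 35.3 CPM with 4-OHT, against 83.4 and 92.6 CPM with EtOH. Its log2 change was -1.24 (SE 0.07). Amigo2 had 3.97 and 3.75 CPM with 4-OHT, against 8.05 and 8.78 CPM with EtOH, with a log2 change of -1.12 (SE 0.11). Tspan8 stood near the floor, at 0.0861 and 0.0663 CPM with 4-OHT, against 0.197 and 0.201 CPM with EtOH. It was not called (log2 change -1.38, SE 0.56, edgeR adjusted p = 0.301). At such levels its distance depends on the prior count of 2 added before the log2.

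Other genes of the same network did not pass the test in either direction. Over all tested genes 2.44% were called. Of 12 further genes of the PAX-SIX-EYA-DACH network, 3 passed the filter on low counts and 0 were called by edgeR or by DESeq2, with 0 at an unadjusted p below 0.05. Pax9, a factor of tooth and palate development, had 48.1 ± 0.441 CPM with 4-OHT and 48.1 ± 1.54 CPM with EtOH, and Pax8, a factor of kidney and thyroid, 0.161 ± 0.0853 CPM with 4-OHT and 0.206 ± 0.00713 CPM with EtOH. Pax2, Pax3 and Six6 had no read in any mRNA library.

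Of 18 partners and substrates of EYA proteins, 18 passed the filter, 1 had an unadjusted p below 0.05, and 0 were called by edgeR or DESeq2. Their median log2 change was -0.05. The most abundant were Baz1b, for the kinase that marks the same histone tyrosine that EYA removes phosphate from, with 523.5 ± 14.6 CPM with 4-OHT and 540.5 ± 25.5 CPM with EtOH, and Gnai2, for a G protein subunit, with 334.0 ± 17.4 CPM with 4-OHT and 319.2 ± 2.57 CPM with EtOH. Of 22 target genes of EYA-SIX complexes, 15 passed the filter, 1 had an unadjusted p below 0.05, and 0 were called by edgeR or DESeq2, with a median log2 change of 0.03. Among the abundant ones were Aldoa, for a glycolytic enzyme, with 559.5 ± 69.4 CPM with 4-OHT and 512.9 ± 56.0 CPM with EtOH, and Ccna2, for the cell cycle protein cyclin A2, with 379.7 ± 12.7 CPM with 4-OHT and 384.5 ± 19.4 CPM with EtOH. The muscle genes Myod1, Myf5 and Ckm had no read in any library.

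Markers of other cell types were compared between the same mRNA libraries. The 5 nephron progenitor markers summed to between 137.1 and 137.7 CPM with 4-OHT and between 132.9 and 135.5 CPM with EtOH, with 0 of 5 called and 0 at an unadjusted p below 0.05. Most of this sum was Sall1, at 117.8 ± 0.643 CPM with 4-OHT and 115.1 ± 1.20 CPM with EtOH. Gdnf followed at 10.6 ± 0.150 CPM with 4-OHT and 10.4 ± 0.0528 CPM with EtOH. Cited1 was lowest, at 0.260 ± 0.0388 CPM with 4-OHT and 0.244 ± 0.132 CPM with EtOH. Of 7 skeletal muscle markers 2 passed the filter, 0 were called and 0 had an unadjusted p below 0.05, with summed levels between 26.6 and 28.7 CPM with 4-OHT and between 24.7 and 30.9 CPM with EtOH. Nearly all of this sum was Acta1, at 26.8 ± 1.78 CPM with 4-OHT and 27.1 ± 4.27 CPM with EtOH. Des had 0.861 ± 0.264 CPM with 4-OHT and 0.676 ± 0.0614 CPM with EtOH. Of 5 neural markers 3 passed the filter and 2 were called by edgeR, in opposite directions, and 1 by DESeq2. Over all tested genes edgeR called 2.44%. Map2 passed the filter and was not called (log2 change 0.08, SE 0.12, edgeR adjusted p = 0.915). It had 5.25 ± 0.530 CPM with 4-OHT and 4.96 ± 0.880 CPM with EtOH. Rbfox3 and Sox10 had at most 1 read in any mRNA library. Tubb3, a neuronal tubulin gene, was higher with 4-OHT at 4.87 ± 0.457 CPM than with EtOH at 3.47 ± 0.147 CPM (log2 change 0.49, SE 0.12, edgeR adjusted p = 0.0142), and Sox2, a stem cell and otic factor gene, was lower with 4-OHT at 7.01 ± 0.0858 CPM than with EtOH at 9.98 ± 0.599 CPM (log2 change -0.51, SE 0.10, edgeR adjusted p = 0.000804). The neural list summed to between 17.0 and 17.3 CPM with 4-OHT and between 17.5 and 19.4 CPM with EtOH, and its part in the Eya2 difference was not tested. None of the 5 endothelial markers passed the filter, and Cdh5 and Tie1 had no read. Of 5 myeloid markers 2 and of 5 epithelial markers 5 passed the filter. Of either list 0 were called by edgeR or DESeq2, with 0 myeloid and 2 epithelial markers at an unadjusted p below 0.05. The epithelial list summed to between 27.0 and 31.0 CPM with 4-OHT and between 27.2 and 30.1 CPM with EtOH. Most of this was Cdh1, at 14.8 CPM with 4-OHT and 12.5 CPM with EtOH, and Krt19, at 13.4 CPM with 4-OHT and 15.4 CPM with EtOH. Epcam, Krt8 and Krt18 were low, at 0.213, 0.254 and 0.416 CPM with 4-OHT and 0.168, 0.350 and 0.295 CPM with EtOH.

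Regions of BMAL1 signal, called by the authors on EtOH cells, stood near 3 of the 7 genes, Eya4, Six4 and Six5. A region within 50 kb of the start was found for 45.5% of the 13197 tested genes with a single start, so 3 of 7 is close to that share. Eya2, the member with the largest log2 change in mRNA, had none. Its start, the upstream end of a gene at chromosome 2, 165595028 to 165771727 on the plus strand, lay 307178 bp from the nearest region. For Eya1 (chromosome 1, 14168958 to 14310199, minus strand) that distance was 649466 bp and for Six2 (chromosome 17, 85684268 to 85688254, minus strand) 479077 bp. Eya3 (chromosome 4, 132639046 to 132724763, plus strand) came closest of the genes outside the limit, at 103314 bp, and the farthest region inside it was 37048 bp from Six5.

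At Eya4 (chromosome 10, 23104168 to 23349903, minus strand) the region spanned chr10:23350104-23350220. It lay 201 bp upstream of the start in the counting annotation and overlapped no annotated gene there, while the outermost RefSeq start lies beyond it, at 23350838. At Six4 (chromosome 12, 73100259 to 73113245, minus strand) the region spanned chr12:73113272-73113555, 27 bp upstream of the start and likewise inside the outermost RefSeq start, at 73114031. Six5 (chromosome 7, 19094544 to 19098345, plus strand) had 2 regions. The nearer, chr7:19095756-19096064, lay 1212 bp downstream of the start in an intron of Six5. The farther, chr7:19131592-19131755, lay 37048 bp downstream in an intron of Fbxo46, a gene for an F-box protein, whose start was the nearest at 11733 bp. The authors' fold enrichment in the EtOH call was 8.11 at Eya4, 15.9 at Six4, and 8.26 and 5.94 at the nearer and the farther Six5 region, against a median of 8.25 over all regions.

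BMAL1 signal was lower with 4-OHT at all 4 regions, to between 27.9% and 34.6% of the EtOH mean. Signal is given as reads per 10000000 library reads (RP10M). At Six4 it was 14.6 and 8.21 RP10M with 4-OHT, against 52.6 and 28.9 RP10M with EtOH, from 20 and 17 reads with 4-OHT and 71 and 51 reads with EtOH. This region had the highest EtOH signal of the 4, and its 2 EtOH libraries differed from each other, yet both 4-OHT values lay below both EtOH values. The log2 change was -1.87 (SE 0.32, edgeR adjusted p = 1.24e-08, n = 2 each), a 3.65-fold lower signal. Of all regions, 93.8% were called lower, and in 98% both 4-OHT libraries lay below both EtOH libraries, so that the 4 of 4 at the EYA-SIX genes are at the background share. The regions were called on EtOH cells, which favours a fall, and how much of the fall comes from this was not tested.

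At the nearer Six5 region the signal was 11.6 and 10.1 RP10M with 4-OHT, against 34.1 and 28.9 RP10M with EtOH, with a log2 change of -1.53 (SE 0.32, edgeR adjusted p = 5.08e-06). The groups stood well apart here and the replicates were close. At the farther Six5 region it was 2.18 and 7.72 RP10M with 4-OHT, against 15.6 and 15.3 RP10M with EtOH, with a log2 change of -1.49 (SE 0.43, edgeR adjusted p = 0.00081). At Eya4 it was 1.46 and 5.79 RP10M with 4-OHT, against 10.4 and 13.04 RP10M with EtOH, with a log2 change of -1.54 (SE 0.48, edgeR adjusted p = 0.00165). The Eya4 value rests on 2 and 12 reads with 4-OHT and 14 and 23 reads with EtOH, and without EtOH replicate 2 its log2 change of -1.36 was no longer called (adjusted p = 0.0523). The farther Six5 region and Eya4 were the weakest of the 4, and in both the 4-OHT replicates were farther apart than the EtOH replicates. Leaving out 4-OHT replicate 1 gave the smallest changes at these regions, -1.02 at Eya4 and -0.99 at the farther Six5 region, both still called, and leaving out 4-OHT replicate 2 the largest, -2.96 at Eya4 and -2.77 at the farther Six5 region.

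**Figure D3:**
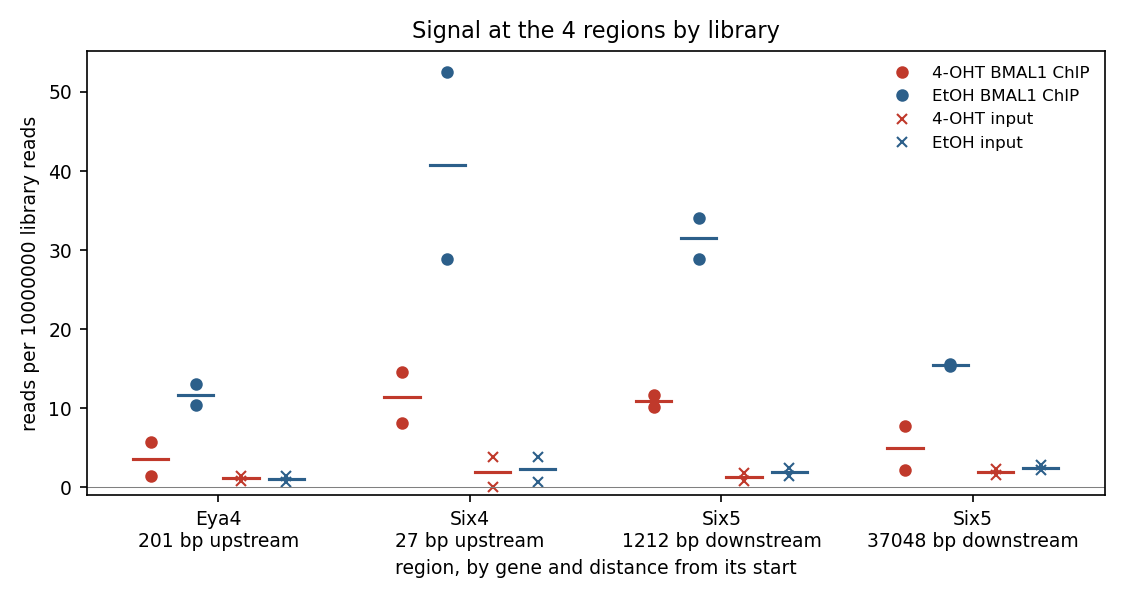
Signal in RP10M at the 4 regions near Eya4, Six4 and Six5, with 1 point per ChIP library, 1 cross per input library and a bar at each mean, 4-OHT left of EtOH. ChIP means lie between 3.62 and 11.4 RP10M with 4-OHT and between 11.7 and 40.8 RP10M with EtOH, and all inputs lie at 3.89 RP10M or below.

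The 4 regions changed about as much as the rest. The median log2 change was -1.54 over the 4 and -1.66 over all 4740 regions, whose quartiles were -1.99 and -1.32. A larger fall was seen in 34.1% of regions than at Six4, in 59.0% than at Eya4, and in 59.6% and 62.8% than at the nearer and the farther Six5 region. When the libraries were scaled on the regions themselves, which put the median change at 0.0177, the log2 changes were -0.17 at Six4 (edgeR adjusted p = 0.839), 0.13 at Eya4 (adjusted p = 0.92), 0.16 at the nearer Six5 region (adjusted p = 0.861) and 0.19 at the farther (adjusted p = 0.876). A difference of the 4 regions from the median region was therefore not detectable at this depth, and their fall is one measured against library totals.

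**Figure D4:**
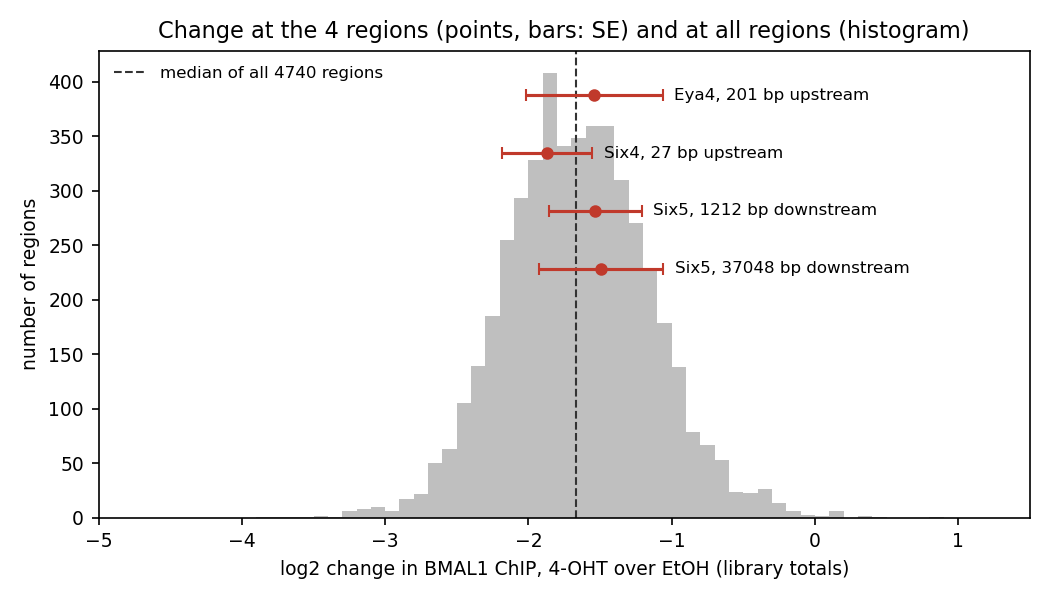
Histogram of the log2 change in BMAL1 ChIP (4-OHT over EtOH, library totals) over all 4740 regions, with the median as a dashed line and the 4 regions near Eya4, Six4 and Six5 as points with SE bars, placed one under the other for legibility. All 4 points, between -1.87 and -1.49, fall in the body of the distribution.

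With 4-OHT, BMAL1 signal stood above input in both libraries at 2 of the 4 regions, those at Six4 and the nearer Six5 region, and overlapped input at the other two. At Eya4 ChIP replicate 1, at 1.46 RP10M, lay below input replicate 2, at 1.49 RP10M, and at the farther Six5 region ChIP replicate 1, at 2.18 RP10M, lay below input replicate 2, at 2.39 RP10M. Of all regions, 90.5% had both 4-OHT ChIP libraries above both 4-OHT inputs. In the fit, ChIP exceeded 4-OHT input 6.85-fold at the nearer Six5 region (log2 2.78, SE 0.52, edgeR adjusted p = 4.75e-06) and 3.85-fold at Six4 (log2 1.94, SE 0.52, edgeR adjusted p = 0.000741). At Eya4 it was 2.99-fold (log2 1.58, SE 0.71, edgeR adjusted p = 0.0384) and at the farther Six5 region 2.47-fold (log2 1.30, SE 0.59, edgeR adjusted p = 0.039). Of all regions 80.6% were called higher than input with 4-OHT. The calls at Eya4 and the farther Six5 region rest on ChIP replicate 2: without it the log2 values were 0.15 at Eya4 (adjusted p = 0.913) and 0.00938 at the farther Six5 region (adjusted p = 0.994). They were also lost without 4-OHT input replicate 1, at 1.39 for Eya4 (adjusted p = 0.0849) and 1.17 for the farther Six5 region (adjusted p = 0.0859), and without 4-OHT input replicate 2, at 2.23 for Eya4 (adjusted p = 0.0976) and 1.72 for the farther Six5 region (adjusted p = 0.106).

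Inputs were low at all 4 regions. At Six4 they held 0 and 3.89 RP10M with 4-OHT, against 0.728 and 3.89 RP10M with EtOH, where the count of 0 in 12481308 reads allows up to 2.40 RP10M. At Eya4 they held 0.801 and 1.49 RP10M with 4-OHT, against 0.728 and 1.42 RP10M with EtOH. At the nearer Six5 region they held 0.801 and 1.79 RP10M with 4-OHT, against 1.46 and 2.48 RP10M with EtOH, and at the farther 1.60 and 2.39 RP10M with 4-OHT, against 2.18 and 2.83 RP10M with EtOH. The input groups overlapped at all 4 regions, and edgeR called 0 of the 4 regions and 0 of all 4740 between inputs, with 218 of all at an unadjusted p below 0.05. With EtOH the ChIP signal stood above input by log2 values of 3.79 at Six4, 3.83 and 2.53 at the nearer and the farther Six5 region, and 3.25 at Eya4, given with no test since these libraries served to call the regions.

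At the 3 genes with a region, lower BMAL1 signal stood beside small differences in mRNA. The log2 changes in signal and in mRNA were -1.54 and -0.06 for Eya4, -1.87 and 0.05 for Six4, and, with the nearer region, -1.53 and 0.14 for Six5. The authors' deposited table of their own comparison lists these 3 of the 7 genes, with log2 fold changes of -0.05 for Eya4, 0.04 for Six4 and 0.10 for Six5. Fbxo46, with its start nearest to the farther Six5 region, had 12.7 ± 1.09 CPM with 4-OHT and 11.98 ± 1.09 CPM with EtOH (log2 change 0.08, SE 0.09, edgeR adjusted p = 0.877). Eya2 had no region within the limit. Of the 215 called-lower genes with a single start, 43.7% had a region within 50 kb, close to the 45.5% of all tested genes.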

How the data were processed

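Per the file headers, the authors made read counts per gene with featureCounts v1.5.0-p1, counting reverse-stranded reads over exons of a UCSC mm10 annotation. For each ChIP and input library they deposited counts of reads in 4740 regions, named in the files as MACS2 peaks of the control, with the caller's fold enrichment (a ratio), score, and −log10 p and q values. Pooling of replicates for that step is not stated in the sources used. Per the submitters' processing notes, bedtools 2.25.0 and DESeq2 were among the tools. A deposited signal table, named RPKM, equals 5 plus reads per 10000000 library reads with no division by length, and library totals were read from it. The authors' comparison table holds log2 fold changes, test scores and p-values for 3317 genes.

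Tests on gene counts used edgeR 4.0.16 under R 4.3.3 (TMM factors between 0.992 and 1.01, default expression filter, robust quasi-likelihood fit, Benjamini-Hochberg over all tested genes, threshold 0.05). Region counts were tested likewise with library totals and no further scaling, on 4 ChIP libraries, on 4 inputs, and on all 8 for ChIP against input. Each SE of a log2 change was derived, as its absolute size divided by the square root of the quasi-likelihood F statistic. CPM used TMM-scaled totals and RPKM the annotated exon length. A start was the upstream end of the outermost exon, and 133 genes on several chromosomes or strands were left out of distances. Log2 CPM for likeness had a prior count of 2. Both pipelines were run on simulated data in which a minority of well-counted features changed, in both directions. That simulation covers neither low read numbers nor a fall shared by most regions. The alternatives were DESeq2 1.42.0, other scalings, filters, windows, a replicate block and each library left out. Replicate numbers were not shown to pair libraries, and replicates differed by more than sampling noise. The labels do not say that replicates were separate cultures, so p-values may measure technical spread.

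Members and gene lists were chosen with earlier results of these data known. Genes named were the members, the 5 most like any called member, genes at the regions, and from each list the genes called or else the 2 most abundant. In the network list and in the target list 1 gene each is not reported here, and the next most abundant, Pax8 and Ccna2, were named. The fibroblast markers were chosen by the same lists, with absent markers named as well. For the nephron progenitor, epithelial and neural lists, markers with low levels or not called were named too. Counting intervals and floors (3 reads) cover counting error only.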

Additional observations from a re-analysis of the deposited data

How the results depend on the processing

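The log2 change of Eya2 in mRNA, a description, lay between -1.26 and -1.09 with 1 library left out. Of the counts over all genes, 106 higher and 216 lower, DESeq2 gave 62 higher, the replicate block 60 higher, and a crossed pairing, added after seeing the data because same-numbered libraries deviated in opposite directions (correlation -0.168), 518 higher and 611 lower, while leaving out 1 library gave 40 to 196 higher and 140 to 247 lower. With the replicate block all 4 regions stayed called lower. Scaling on the regions sets the shared change to about 0. Under TMM factors it gave 228 regions lower and 66 higher of all, against 4445 and 0 with library totals, 0 of 4 lower near the 3 genes, 0 of 4 above input, and 232 regions above input against 3822. Log2 changes were then 0.13 at Eya4, -0.17 at Six4, and 0.16 and 0.19 at the nearer and farther Six5 region, and ChIP over input -0.28, 0.052, 0.91 and -0.57 in that order. DESeq2 with its own size factors gave 141 lower and 13 higher, and log2 changes of 0.0589, -0.12, 0.18 and 0.12. It assigned no adjusted p to these 4 regions, so its 0 of 4 is no test result. DESeq2 with library totals called 2 of 4 lower, losing Eya4 (-1.63, adjusted p = 0.0783) and the farther Six5 region (-1.58, adjusted p = 0.0521), and 2 of 4 above input, losing the same (1.60 and 1.30). Subtracting the input change called 2395 regions lower and 1 of 4, Six4, with -1.67 at Eya4 and -1.06 and -1.23 at the Six5 regions; it adds the spread of 4 inputs. Leaving out 1 library gave 3753 to 4234 regions lower, 3 to 4 of 4 lower, 2764 to 3612 regions above input and 2 to 4 of 4 above input. Its ranges for the change were -2.96 to -1.02 at Eya4, -2.27 to -1.40 at Six4, -1.65 to -1.42 at the nearer and -2.77 to -0.99 at the farther Six5 region, and for ChIP over input 0.15 to 2.23, 1.47 to 7.23, 2.55 to 3.63 and 0.00938 to 1.80 in that order. The 7.23 at Six4 is set against the 4-OHT input replicate with 0 reads there, so it depends on the prior count and is no measured ratio. Without 4-OHT input replicate 1 ChIP over input was 1.39 at Eya4 and 1.17 at the farther Six5 region, and without input replicate 2 it was 2.23 and 1.72. Partner and target lists each had 1 gene called higher without 4-OHT replicate 1, the partner list also 1 with no filter on low counts, and each list 2 with the crossed pairing. A window of 10 kb held 3 regions and one of 100 kb 4. Where no cause is given here, the cause was not tested. Low read numbers limit Six2 and the Eya4 and farther Six5 regions.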

Other observations

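Genes next to the Six4 and Six5 regions were looked at after their values had been seen. Mnat1, for a subunit of the CDK-activating kinase, starts 10162 bp from the Six4 region and had 45.2 ± 1.97 CPM with 4-OHT and 47.4 ± 3.42 CPM with EtOH (SD, n = 2 each, log2 change -0.07, edgeR adjusted p = 0.874). Dmpk, for the protein kinase of myotonic dystrophy, starts 11907 bp from the nearer Six5 region and had 23.1 ± 2.17 CPM with 4-OHT and 23.7 ± 1.70 CPM with EtOH (log2 change -0.04, edgeR adjusted p = 0.942). Neither was called.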
